A study of Homo sapiens with 52 samples.

Results

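The nuclear genes of the mitochondrial respiratory chain were taken as the protein-coding genes whose symbols name subunits of complexes I to V (NDUFA, NDUFB, NDUFC, NDUFS and NDUFV, SDHA to SDHD, UQCR and CYC1, COX4 to COX8, and ATP5F, ATP5M and ATP5P). The rule found 87 of the 78894 genes in the deposited tables, with 37 in complex I, 4 in complex II, 10 in complex III, 17 in complex IV and 19 in complex V. They were measured by bulk RNA-seq in 52 samples of 3 claudin-low breast cancer cell lines, SUM159PT, MDA-MB-231 and HS578T. Each line carried 6 conditions. For 3 of them, siRNA was given by transient transfection at 20 nM, either a control that targets no gene (siNT) or one of the NRP1 siRNAs siNRP1#3 and siNRP1#5, and cells were harvested at 72 h. For the others (shNT, shNRP1#3 and shNRP1#5), shRNA was delivered by lentivirus, and the cells were kept under puromycin, reseeded and harvested 48 h later. Both #3 sequences, which differ from each other, target the transmembrane form of NRP1, and the #5 sequence, shared by siRNA and shRNA, also targets the soluble form. NRP1, or neuropilin-1, is a co-receptor for vascular endothelial growth factors and semaphorins. Groups held 3 samples, or 2 in the case of siNRP1#5 in SUM159PT and of shNRP1#3 in HS578T. The shRNA replicates were consecutive passages of transduced cells, so p-values measure the spread between these cultures.

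The respiratory chain sits in the inner mitochondrial membrane. Complexes I and II pass electrons from NADH and succinate to ubiquinone, complex III passes them on to cytochrome c, and complex IV passes them to oxygen. Complexes I, III and IV pump protons, and complex V, the ATP synthase, uses the gradient to make ATP. A few subunits are encoded in mitochondrial DNA and all others in the nucleus, so the complexes are assembled from products of both genomes. Complex II is encoded wholly in the nucleus and also serves in the citric acid cycle.

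Library depth ran from 25310443 to 72003442 expected counts, with a median of 44804505, and members took 0.884% to 1.63% of the counts of a library. NRP1 was lower than its control in all 12 knockdown comparisons, from a log2 fold change of -0.70 (MDA-MB-231 siNRP1#3) to -4.88 (MDA-MB-231 siNRP1#5), and passed the test in 11, the exception being HS578T shNRP1#3 (-1.59, adjusted p = 0.0690, edgeR). The claudin-low label was checked on CLDN3, CLDN4, CLDN7 and CDH1: CLDN4 averaged 178 CPM (counts scaled to library size) in MDA-MB-231 siNT but 2.38 and 4.24 in SUM159PT and HS578T siNT, while the mesenchymal gene VIM was at 1533 CPM or more in every sample. CLDN4 was thus not absent from MDA-MB-231. CLDN3 reached at most 9.57 CPM, CDH1 at most 9.32 and CLDN7 at most 55.0 in any sample. The HS578T siNRP1#5 libraries stood apart: 59 genes expressed in MDA-MB-231 and nearly silent in HS578T stood there at 22.9%, 17.9% and 12.9% of the level they have in MDA-MB-231 controls, against 0.651% to 2.14% in HS578T siNT. The genes were chosen as low in the HS578T controls, so low siNT values follow from the choice. Outside that choice, HS578T siNRP1#3 held 2.43% to 7.05% and the HS578T samples with NRP1 shRNAs 0.210% to 0.441%. By the stricter rule on every control sample, which left 3 genes, the siNRP1#5 libraries were at 20.9%, 22.4% and 11.7%. In replicate 2 of HS578T siNRP1#5, 7 SUM159PT marker genes also stood at 8.08% of their SUM159PT level, against 0.153% and 0.0537% in replicates 1 and 3. HS578T siNT, where these genes were chosen as low, held at most 0.226%. Replicate 3 of MDA-MB-231 shNRP1#3 held 50 SUM159PT markers at 2.62% and 54 HS578T markers at 2.12% of their levels. For HS578T with either siRNA, counts and the values of genes named as called are therefore also given after subtraction of MDA-MB-231 reads by the share of the stricter rule, which leaves SUM159PT reads in place. In bulk samples, fewer cells of a kind and less RNA per cell cannot be told apart.

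Of the 87 members, 81 passed the filter on low counts in SUM159PT, with 81 in MDA-MB-231 and 82 in HS578T. COX4I2, COX6A2, COX7B2, COX8C and ATP5MGL did not pass in any line, and COX7A1 passed in HS578T alone. Some members share reads with close copies. UQCRHL is an intronless copy of UQCRH and stood at 9.36% to 14.7% of the CPM of UQCRH over the 52 samples (median 10.7%), ATP5MF-PTCD1 is a readthrough of ATP5MF, and SDHA has several pseudogenes, so values of these genes carry the uncertainty of splitting such reads. NDUFA4, counted here with complex I by its symbol, is also known as a subunit of complex IV.

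Levels in the non-targeting controls are given per length. The summed TPM, a unit corrected for library size and gene length, of all members was 24728 ± 2210 in SUM159PT, with 20772 ± 725 in MDA-MB-231 and 23180 ± 1262 in HS578T (SD, n = 6 each, siNT and shNT together). Complex I contributed 8099 ± 631, 6362 ± 327 and 7860 ± 634 in these lines and complex V, the ATP synthase, 7425 ± 802, 6310 ± 209 and 5751 ± 514. Complex II, with only 4 genes, was at 664 ± 128, 634 ± 42.4 and 487 ± 48.8. Complex III was at 2896 ± 464, 2257 ± 176 and 3766 ± 460, and complex IV at 5645 ± 864, 5209 ± 199 and 5316 ± 478. ATP5F1B, the catalytic beta subunit of ATP synthase, was the highest member of complex V in SUM159PT and MDA-MB-231, at a mean of 1228 and 892 TPM, and COX8A, a small subunit of complex IV, reached 1258 TPM in MDA-MB-231. The lowest expressed complex I gene in every line was NDUFV3, an accessory subunit of the NADH-binding module, at 17.8 to 24.9 TPM.

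**Figure D1:**
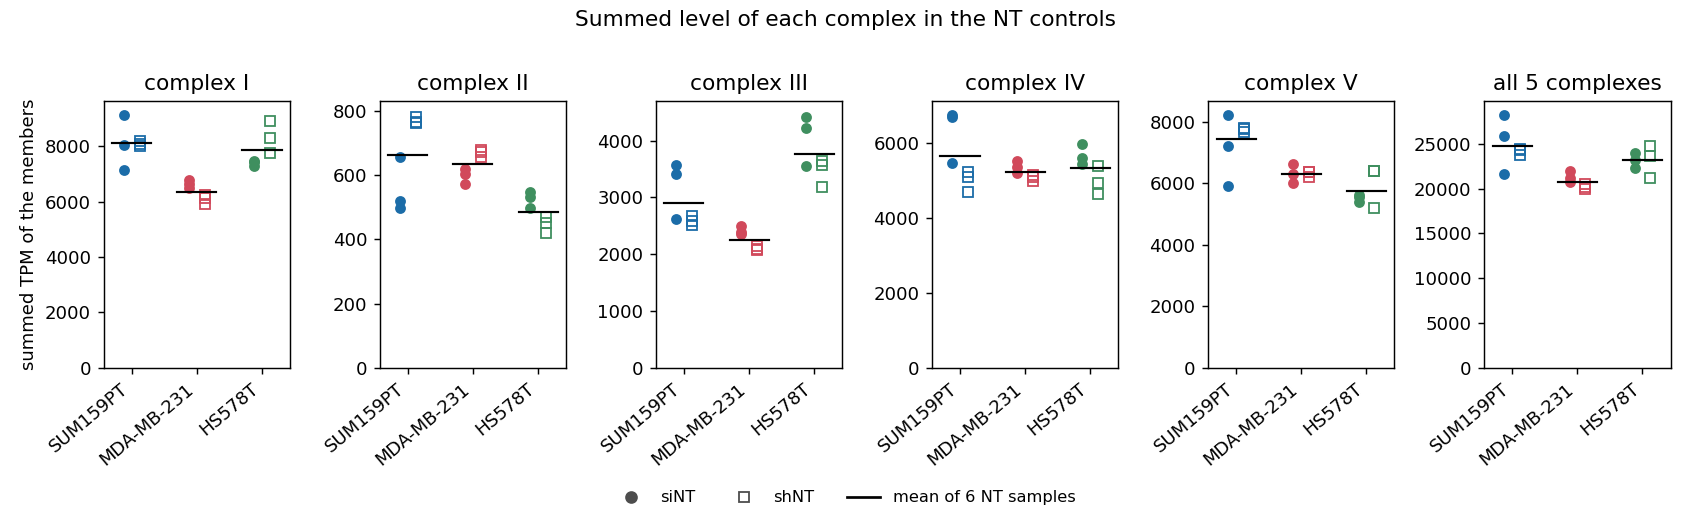
Summed TPM of the members of each complex (y axis, linear, from 0) in the non-targeting controls of the 3 cell lines (x axis); filled circles are siNT samples, open squares shNT samples and bars the mean of 6 samples. Complex III was highest in HS578T (mean 3766) and lowest in MDA-MB-231 (mean 2257), and in each line its highest siNT sample lay above all shNT samples.

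The isoform genes of complex IV separated into expressed and nearly silent copies. The widely expressed COX4I1, COX6A1, COX6B1, COX7A2 and COX8A averaged 463 to 1258 TPM in the controls of each line, whereas the tissue-restricted isoforms COX4I2, COX6A2, COX7B2 and COX8C averaged at most 0.242 TPM. COX6B2, a testis isoform, averaged 0.133 TPM in SUM159PT and 0.102 TPM in MDA-MB-231 but 2.48 TPM in HS578T. COX7A1, a heart and muscle isoform, had 0 counts in all 6 controls of SUM159PT and all 6 of MDA-MB-231. In HS578T it had 14, 35 and 49 counts in siNT and 316, 11 and 13 in shNT. Replicate 1 of shNT stood far above the other controls, as did replicate 1 of shNRP1#3 (336 counts, against 16) and of shNRP1#5 (204 counts, against 3 and 10). Set against a floor of 3 counts per library, the mean of COX7A1 in the HS578T controls was at least 22.9-fold higher than in SUM159PT and at least 23.6-fold higher than in MDA-MB-231, or at least 10.0-fold and 10.3-fold higher without shNT replicate 1. The 3 genes of the ATP synthase c ring, ATP5MC1, ATP5MC2 and ATP5MC3, which encode the same mature protein, were all well expressed, at 330 to 598 TPM.

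The promoters were read for features that the rule did not use. RefSeq promoter windows (GRCh38.p14, 250 bases before to 50 after the start) were matched for 68 of the 87 members and searched on both strands for GCGC and TGCGC set apart by any 1 base, the motif of nuclear respiratory factor 1 (NRF1), and CCGGAAG, the core bound by ETS factors such as GABPA, both known regulators of these genes. The NRF1 letters were in 17 member promoters (25.0%), against 5.78% of all 35116 promoters, and the ETS letters in 20 (29.4%), against 10.3%. Both were in 3 (ATP5ME, SDHD and UQCR11), or 4.41% against 1.12%. No filter for protein-coding or expressed genes was applied to the 35116 windows, whereas the members are protein-coding and each was counted once. The 250 bases upstream of the start are shown for SDHA, SDHD and SDHB, with matches in capitals (NRF1 letters in SDHA, both motifs in SDHD, ETS letters in SDHB). Of the 12 knockdown comparisons, SDHA was called lower in 4, SDHD lower in 2 and SDHB higher in 3. The log2 fold change was positive in 2 of the 12 for SDHA, in 8 for SDHD and in 11 for SDHB. A match is a description of the letters only.
SDHA, chr5:218070-218319, plus strand: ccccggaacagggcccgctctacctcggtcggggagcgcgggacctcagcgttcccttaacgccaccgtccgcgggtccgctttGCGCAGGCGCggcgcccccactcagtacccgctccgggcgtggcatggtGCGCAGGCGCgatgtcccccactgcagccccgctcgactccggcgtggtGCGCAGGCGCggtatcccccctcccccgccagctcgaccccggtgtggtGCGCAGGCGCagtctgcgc
SDHD, chr11:112086623-112086872, plus strand: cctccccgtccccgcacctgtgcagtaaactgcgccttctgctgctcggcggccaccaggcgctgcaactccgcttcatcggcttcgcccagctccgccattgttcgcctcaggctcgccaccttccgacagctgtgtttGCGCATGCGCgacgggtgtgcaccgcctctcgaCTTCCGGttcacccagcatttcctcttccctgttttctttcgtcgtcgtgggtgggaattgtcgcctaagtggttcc
SDHB, chr1:17054033-17054282, minus strand: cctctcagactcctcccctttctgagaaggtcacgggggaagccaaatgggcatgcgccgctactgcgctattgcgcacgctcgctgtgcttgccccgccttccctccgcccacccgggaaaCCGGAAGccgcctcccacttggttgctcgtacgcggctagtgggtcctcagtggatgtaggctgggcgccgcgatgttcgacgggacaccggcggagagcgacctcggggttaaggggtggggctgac

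With siNRP1#5, most nuclear respiratory chain genes that passed the test were higher in SUM159PT and MDA-MB-231, while SDHA, the flavoprotein of complex II that oxidises succinate, was lower in all 3 lines. In MDA-MB-231, 50 of 81 members rose and 1 fell, with a median log2 fold change of 0.41, where 29.4% of all 18800 genes tested were called (14.4% higher). In SUM159PT, 23 of 81 rose and 1 fell (median 0.51), where 17.9% of 20067 genes were called (9.0% higher). In HS578T, 4 of 82 rose and 3 fell (median 0.18), where 18.7% of 19661 genes were called (10.1% higher). On the log2(TPM + 1) scale 4 rose and 5 fell in HS578T, where 13.6% of all genes were called by limma. All other tests here used the quasi-likelihood F test of edgeR, adjusted after Benjamini and Hochberg over all genes tested with a threshold of 0.05, on counts normalised by the trimmed mean of M values (TMM).

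The size of the increase depended on the scale. Members are short transcripts: 63 of 81 in SUM159PT and in MDA-MB-231 lay in the shortest of 4 equal length classes of all genes tested, and that class had a median log2 fold change of 0.13 in SUM159PT and 0.17 in MDA-MB-231, against -0.12 and -0.14 in the longest class. Offsets for gene length left 22 members higher and 2 lower in SUM159PT and 32 higher and 3 lower in MDA-MB-231. With these offsets 18.9% and 29.6% of all genes were called. On log2(TPM + 1) with limma, 3 rose and 3 fell in SUM159PT and 15 rose and 5 fell in MDA-MB-231. Of all genes, 12.7% and 26.8% were called by limma, so members were not called more often there than genes at large. On that scale the median of all genes was -0.10 in SUM159PT and -0.11 in MDA-MB-231, and the members' median lay above it by 0.29 and 0.28. The summed TPM of all members was 28564 ± 752 (SD, n = 2) with siNRP1#5 against 25264 ± 3346 (n = 3) with siNT in SUM159PT, where 1 siNT sample (28281) lay inside the siNRP1#5 range. It was 24322 ± 1144 against 21309 ± 618 in MDA-MB-231 (n = 3 each), with no overlap. The part of gene length in these counts was not tested beyond these values.

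**Figure D2:**
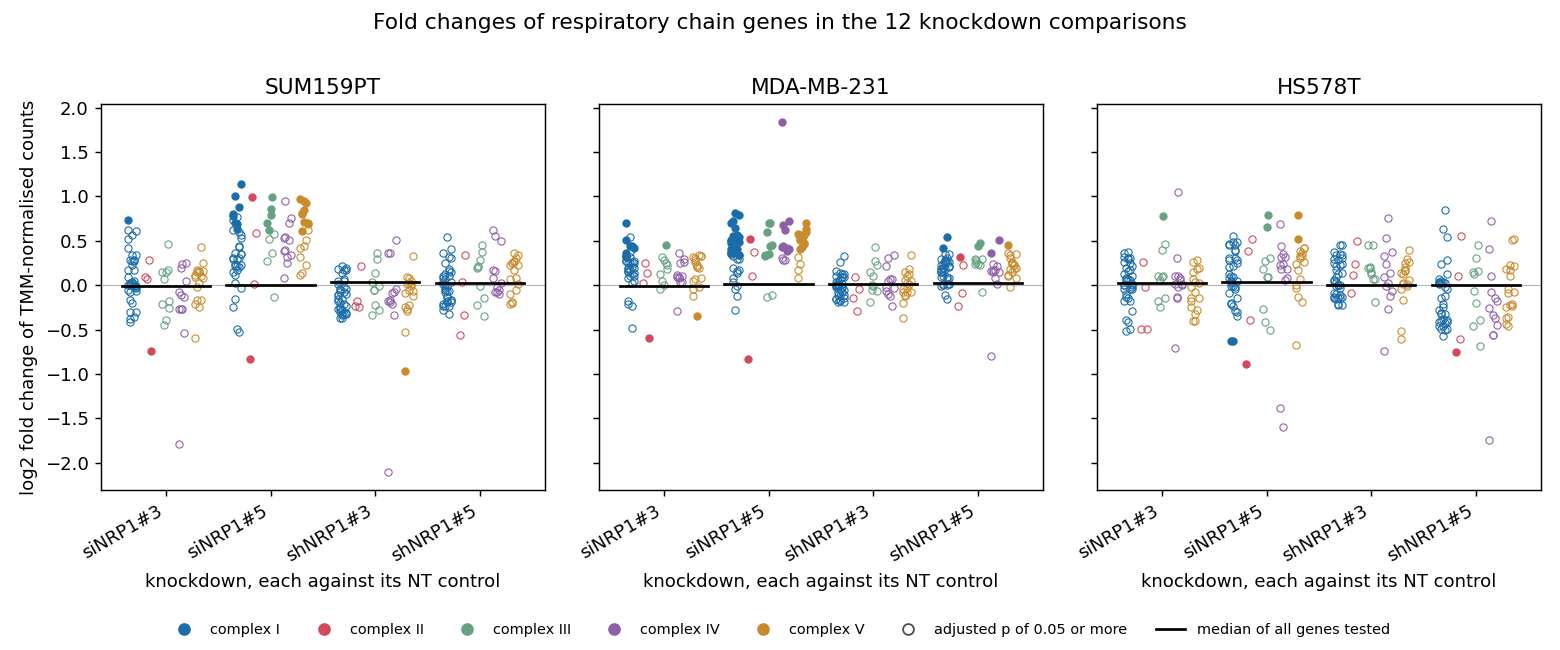
Log2 fold change of TMM-normalised counts (y axis) of every member tested in the 12 comparisons of a knockdown with its control (x axis), coloured by complex; filled points passed an adjusted p of 0.05 and black bars mark the median of all genes tested. Most members lie above the bar with siNRP1#5 in SUM159PT (median 0.51) and MDA-MB-231 (median 0.41), and the low filled red point in each siNRP1#5 column is SDHA.

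**Figure D3:**
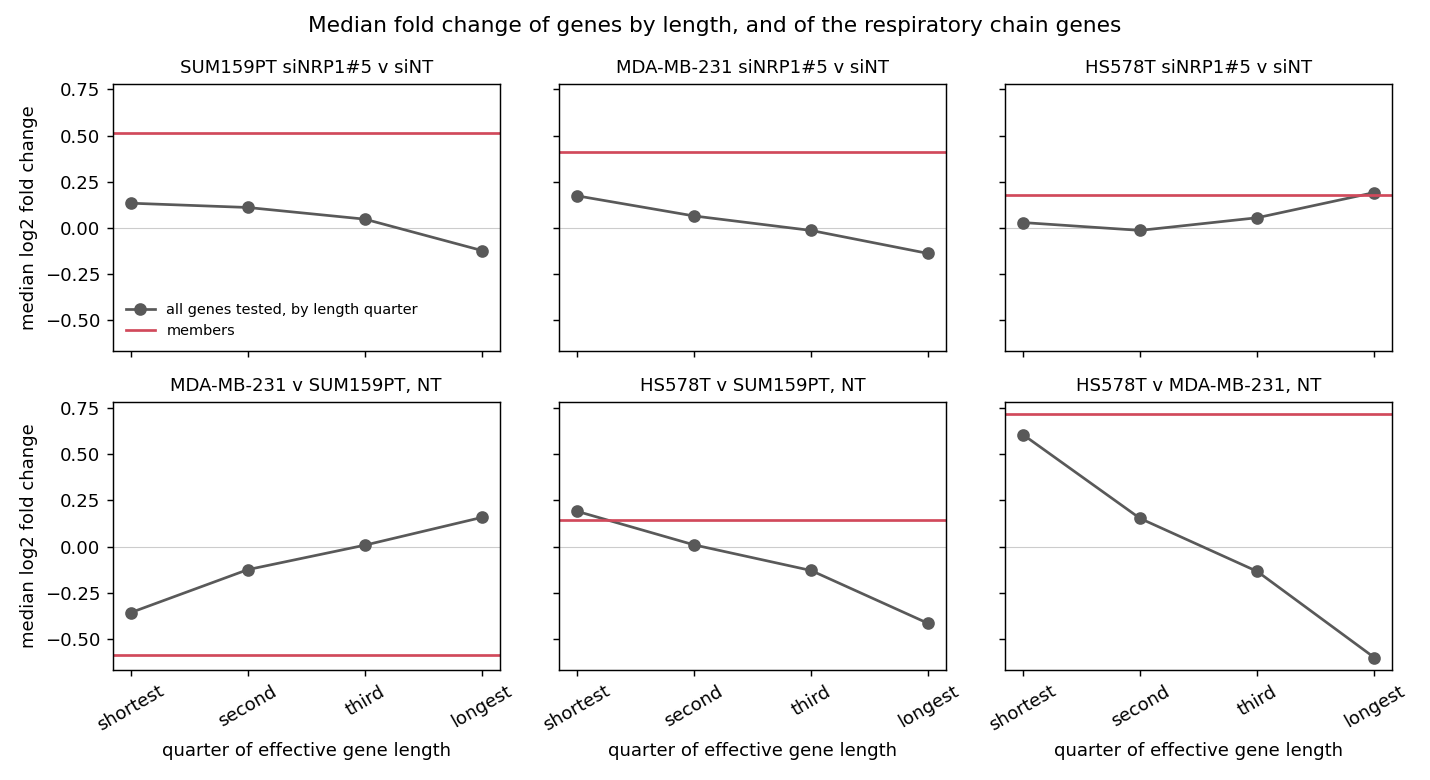
Median log2 fold change (y axis) of all genes tested in each of 4 equal classes of effective gene length (x axis, grey points) beside the median of the members (red line) for siNRP1#5 in the 3 lines and for the 3 comparisons of cell lines. In HS578T against MDA-MB-231 the shortest class (0.61) was nearly as high as the members (0.72), whereas with siNRP1#5 in SUM159PT the shortest class (0.13) lay below the members (0.51).

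By complex, most members called higher with siNRP1#5 were spread over complexes I, III, IV and V in MDA-MB-231 and over I, III and V in SUM159PT. In MDA-MB-231, 20 of 37 complex I genes rose and none fell (median 0.39), as did 7 of 10 in complex III (0.40), 8 of 12 in complex IV (0.42) and 14 of 18 in complex V (0.51). In SUM159PT, 8 of 37 complex I genes were called higher (0.35), 5 of 10 in complex III (0.60), none of 12 in complex IV (0.45) and 9 of 18 in complex V (0.65). Complex IV thus had no call there although its median lay above that of complex I. Its summed TPM in SUM159PT was 6958 to 7166 with siNRP1#5 and at most 6743 with siNT. In HS578T, none of the complex I genes rose and 2 fell (0.08), while 2 in complex III and 2 in complex V rose.

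In complex I, NDUFS4, an accessory subunit needed for a stable NADH module, stood at 83.7, 47.7 and 65.7 CPM in SUM159PT siNT and at 200 and 82.7 with siNRP1#5. Only 1 siNT sample overlapped the lower siNRP1#5 sample, and the log2 fold change was 1.14 (SE 0.312, adjusted p = 0.0200, edgeR). In MDA-MB-231 it went from 40.9, 30.9 and 38.1 CPM to 72.2, 72.8 and 42.3, a log2 fold change of 0.79 (SE 0.190, adjusted p = 0.00389, edgeR) without overlap. NDUFB7, an accessory subunit of the membrane arm, had 112, 93.6 and 111 CPM in SUM159PT siNT and 255 and 159 with siNRP1#5, which did not overlap (log2 fold change 1.00, SE 0.202, adjusted p = 0.00413, edgeR). NDUFS7, a core subunit that carries an iron-sulfur cluster, had 49.8, 56.0 and 55.6 CPM in MDA-MB-231 siNT and 65.6, 107 and 107 with siNRP1#5 (log2 fold change 0.81, SE 0.146, adjusted p = 0.000337, edgeR).

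In complex III, UQCRH, the hinge protein that holds cytochrome c1, had 87.7, 89.9 and 89.9 CPM in MDA-MB-231 siNT and 153, 150 and 126 with siNRP1#5, with no overlap (log2 fold change 0.70, adjusted p = 8.75e-05, edgeR). In HS578T it had 269, 292 and 267 CPM against 378, 332 and 577 (log2 fold change 0.66, SE 0.202, adjusted p = 0.0322, edgeR). Its copy UQCRHL was called higher in 6 of the 12 knockdown comparisons and UQCRH in 4, while SDHA was called lower in 4. In complex IV, COX7B, a small subunit needed for assembly of the complex, rose in MDA-MB-231 from 78.9, 74.8 and 71.0 CPM to 130, 140 and 96.3 (log2 fold change 0.73, SE 0.150, adjusted p = 0.00113, edgeR). The largest fold in MDA-MB-231 was that of COX6B2 (log2 fold change 1.84, SE 0.504, adjusted p = 0.00968, edgeR), which rested on 2, 3 and 7 counts in siNT and 11, 14 and 12 with siNRP1#5. In complex V, ATP5MF, a small membrane subunit, rose in MDA-MB-231 from 127, 158 and 128 CPM to 175, 250 and 236 (log2 fold change 0.70, SE 0.138, adjusted p = 0.000830, edgeR), and ATP5MG, another membrane subunit, rose in HS578T from 142, 184 and 189 CPM to 349, 203 and 313 (0.79, SE 0.250, adjusted p = 0.0367, edgeR). After subtraction of MDA-MB-231 reads the HS578T log2 fold changes were 0.94 for UQCRH (adjusted p = 0.00534), 1.08 for UQCRHL (adjusted p = 0.00446) and 0.90 for ATP5MG (adjusted p = 0.0409, edgeR in each).

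These counts moved when single libraries were left out, and the share of all genes called in those fits is not given here. In SUM159PT, 8 members were called without siNRP1#5 replicate 2 or without siNT replicate 1 and 15 without siNT replicate 2. In MDA-MB-231, 28 were called without siNRP1#5 replicate 2. Fits of only the 2 groups compared have fewer samples to estimate the spread. They called more genes than the main fit in some comparisons, such as MDA-MB-231 shNRP1#5 (38.3% against 20.7%). With siNRP1#5 they called fewer genes of any kind in SUM159PT and MDA-MB-231. In HS578T siNRP1#5 such a fit called more, 22.9% of 16836 genes, against 18.7% of 19661 in the main fit. In SUM159PT such a fit called 59 of 17752 genes (0.332%) and no member, with the members' median at 0.50, and in MDA-MB-231 it called 12.7% of 16784 genes and 15 members, with a median of 0.41. In HS578T the count was 6 (4 higher, 2 lower) without siNRP1#5 replicate 2, the library with SUM159PT markers. It fell to 2 or 3 without siNRP1#5 replicate 3 or without any 1 siNT sample. After subtraction of MDA-MB-231 reads (by the 3 genes of the stricter rule) 8 rose and 2 fell (median 0.38). That fit called 12.6% of 19370 genes, so the members stood near the share of all genes. With the 59 markers chosen by their mean 6 rose and 2 fell, where 12.3% of 19314 genes were called.

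In complex II, subunits moved in opposite directions. With siNRP1#5, SDHA fell in SUM159PT from 355, 421 and 421 CPM to 171 and 263, in MDA-MB-231 from 213, 222 and 241 to 111, 108 and 159, and in HS578T from 364, 381 and 433 to 210, 243 and 174. No siNRP1#5 sample overlapped its siNT samples in any line. The log2 fold changes were -0.84 (adjusted p = 0.0146), -0.83 (adjusted p = 3.33e-05) and -0.89 (adjusted p = 0.00222, edgeR in each). SDHB, the iron-sulfur subunit, rose in SUM159PT from 88.1, 113 and 110 CPM to 215 and 188 (log2 fold change 0.99, SE 0.206, adjusted p = 0.00484, edgeR). It also rose in MDA-MB-231 from 92.4, 100.5 and 96.0 to 122, 149 and 138 (0.52, adjusted p = 0.000667, edgeR), again without overlap. SDHC, a membrane anchor, passed the test with neither siRNA in any line.

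The fall of SDHA was called in all 12 alternative fits in MDA-MB-231, all 14 in HS578T, with subtraction of MDA-MB-231 reads among them, and 9 of 11 in SUM159PT. After subtraction the HS578T log2 fold change was -0.86 (adjusted p = 0.00528, edgeR). The exceptions in SUM159PT were the fit without siNRP1#5 replicate 2 (log2 fold change -0.56, adjusted p = 0.115, edgeR) and the fit of the 2 groups alone. With shNRP1#5, whose target sequence is that of siNRP1#5, SDHA had 459, 509 and 454 CPM in SUM159PT shNT and 318, 275 and 327 with the knockdown, which did not overlap but missed the threshold (log2 fold change -0.57, adjusted p = 0.0946, edgeR). In MDA-MB-231 it had 239, 282 and 260 against 230, 217 and 215 (-0.23, adjusted p = 0.171, edgeR). In HS578T it fell from 192, 207 and 172 to 105, 113 and 123 (-0.76, adjusted p = 0.0397, edgeR), a call that 3 of 14 alternatives kept. With siNRP1#3, SDHA gave log2 fold changes of 0.09 in SUM159PT, with 0.02 in MDA-MB-231 and -0.50 in HS578T, none of which passed the test. Set directly against siNRP1#3, siNRP1#5 samples had lower SDHA in SUM159PT (-0.93) and MDA-MB-231 (-0.85), both called, and -0.39 in HS578T (adjusted p = 0.117, edgeR).

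SDHD, the other membrane anchor, followed the other siRNA. With siNRP1#3 it fell in SUM159PT from 50.8, 54.8 and 64.0 CPM to 37.7, 30.0 and 32.1 (log2 fold change -0.74, SE 0.219, adjusted p = 0.0441, edgeR). In MDA-MB-231 it fell from 114.4, 91.8 and 99.96 to 65.7, 83.1 and 49.8 (-0.60, SE 0.165, adjusted p = 0.0122, edgeR). Neither pair of groups overlapped. In HS578T the values were 87.6, 74.2 and 66.4 against 43.1, 69.9 and 47.2, which overlapped (-0.49, adjusted p = 0.224, or -0.52 and 0.246 after subtraction of MDA-MB-231 reads, edgeR). The call in SUM159PT was kept by 4 of 12 alternatives and that in MDA-MB-231 by 10 of 12. With siNRP1#5 SDHD was not called in any line (0.59, 0.37 and 0.52 in SUM159PT, MDA-MB-231 and HS578T), and siNRP1#5 against siNRP1#3 gave 1.33, 0.97 and 1.01, all called.

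**Figure D4:**
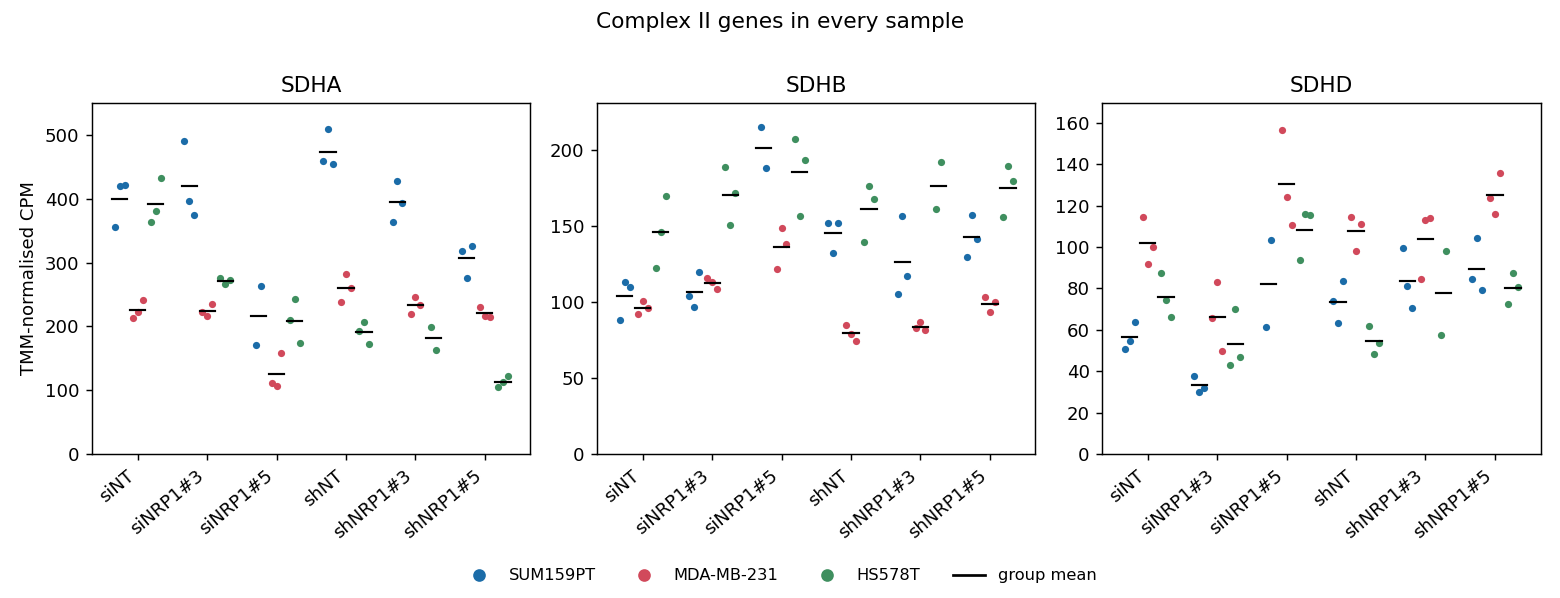
TMM-normalised CPM (y axis, linear, from 0) of SDHA, SDHB and SDHD in every sample of the 6 conditions (x axis), coloured by cell line, with bars at group means. Within each line SDHA is lower in the siNRP1#5 samples (108 to 263 CPM over the lines) than in siNT, although control samples of other lines lie in that range. SDHD is low with siNRP1#3 in SUM159PT (30.0 to 37.7 CPM).

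The transcripts of both genes hold the letters that pair with bases 2 to 8 of the guide strand of the siRNA with which they were lower. These letters were looked up after the values were seen, in GENCODE version 44 transcripts (GRCh38), and are given as a description, with no claim of a site. For the #5 sequence they are GCACTTA and lie after the SDHA stop codon at chr5:256602-256608, shown in capitals within the surrounding bases. For siNRP1#3 they are CACAAGA and lie after the SDHD stop codon at chr11:112095098-112095104.
SDHA: agggagcgtgGCACTTAcctttgtccc
SDHD: ttctcttaatCACAAGAttattttcag
GCACTTA was in the transcripts of 7 of 87 members (8.05%), against 12.0% of 20046 protein-coding genes, SDHA, NDUFA9, UQCRC1, ATP5F1E, COX6C and UQCRB among them. Of these, ATP5F1E, COX6C and UQCRB rose in MDA-MB-231 with siNRP1#5 (log2 fold changes 0.63, 0.68 and 0.44), where 1 of the 7 was called lower. In SUM159PT 1 of the 7 was called lower and none higher, and in HS578T 2 were lower and none higher. Of all protein-coding genes tested with the letters, 43.4% (MDA-MB-231), 23.8% (SUM159PT) and 10.7% (HS578T) were lower and 6.15%, 3.49% and 10.2% higher. Among members without the letters, 47 of 74 were higher in MDA-MB-231 and 23 of 74 in SUM159PT, with none lower. Of all such genes, 17.6% and 12.1% were higher and 12.8% and 8.29% lower. In HS578T 4 of 75 such members were higher and 1 was lower, beside 12.2% and 7.96% of all such genes. CACAAGA was in SDHD, ATP5F1B and NDUFS1 (3.45% of members, against 22.3% of all protein-coding genes). Over all protein-coding genes tested, those with GCACTTA after the stop codon had a median log2 fold change of -0.44 with siNRP1#5 in SUM159PT, with -0.49 in MDA-MB-231 and 0.00 in HS578T, and those with no match 0.10, 0.05 and 0.10. With siNRP1#3, genes with CACAAGA after the stop codon had medians of -0.21, -0.29 and -0.09 and those with none -0.02, 0 and 0.03. The part of these letters in the values of SDHA and SDHD was not tested.

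With siNRP1#3, fewer members were called. In MDA-MB-231, 9 rose and 2 fell (median 0.20), where 25.7% of all genes were called (11.4% higher). In SUM159PT 1 rose and 1 fell (median 0.04), where 8.66% were called, and in HS578T 1 rose (median 0.02), where 4.65% were called. NDUFA7, an accessory subunit of complex I, was the member raised in SUM159PT, from 42.9, 53.8 and 33.0 CPM to 66.4, 80.3 and 66.3 (log2 fold change 0.74, SE 0.198, adjusted p = 0.0290, edgeR). It also rose in MDA-MB-231, from 16.8, 17.1 and 21.9 to 30.7, 29.9 and 28.8 (0.71, SE 0.139, adjusted p = 0.00104, edgeR). In both lines the groups did not overlap, and the call was kept by 5 of 12 alternatives in SUM159PT and 12 of 12 in MDA-MB-231. In MDA-MB-231, NDUFS5 (log2 fold change 0.51), UQCRHL (0.45) and the core subunit NDUFS3 (0.45) rose, while ATP5F1C, the gamma subunit that turns inside the ATP synthase head, fell (-0.35, adjusted p = 0.0324, edgeR). In HS578T the raised member was UQCRHL (0.77, adjusted p = 0.0497, and 0.83 with adjusted p = 0.0410 after subtraction of MDA-MB-231 reads, edgeR). Left-out samples reduced the MDA-MB-231 count to 4 to 9 members, with 4 or 5 without any 1 siNT sample or siNRP1#3 replicate 1 and 7 without siNRP1#3 replicate 2, and the calls in SUM159PT and HS578T to 0 in most cases. With length offsets 4 rose and 3 fell in MDA-MB-231, and in HS578T none rose and 1 fell, where 25.2% and 5.01% of all genes were called. After subtraction of MDA-MB-231 reads 1 member rose in HS578T and none fell, where 3.26% of 19370 genes were called.

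The shRNAs moved few members. In MDA-MB-231 shNRP1#5, 8 rose and none fell (median 0.20), where 20.7% of all genes were called (8.79% higher). NDUFB9, an accessory subunit of complex I, rose there from 49.4, 45.0 and 42.9 CPM to 70.5, 64.7 and 64.5 (log2 fold change 0.55, SE 0.125, adjusted p = 0.00487, edgeR), without overlap. COX7B (0.51), UQCRHL (0.48), the c-ring gene ATP5MC1 (0.46), UQCRH (0.44) and SDHB (0.32) rose as well. The 8 became 1 with length offsets, where 19.4% of all genes were called, and 32 when only these 2 groups were fitted, a fit that called 38.3% of 17806 genes. They became 2 to 4 without shNRP1#5 replicates 1, 2 or 3 or shNT replicates 2 or 3. No member was called in SUM159PT shNRP1#5 (1 at an unadjusted p under 0.05, 0 with DESeq2 and with limma, 5.94% of all genes called). None was called in MDA-MB-231 shNRP1#3 (4 unadjusted, 1 with DESeq2, 0 with limma, 3.65% called) or in HS578T shNRP1#3 (1 unadjusted, 0 with DESeq2 and with limma, 0.0356% called). In HS578T shNRP1#5, SDHA was the only member called (0.946% of all genes called, 13 members unadjusted).

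In SUM159PT shNRP1#3, 1 member fell and none rose (median -0.09), where 1.40% of all genes were called. It was ATP5PD, subunit d of the peripheral stalk of ATP synthase, which had 129, 115 and 122 CPM in shNT and 53.5, 66.1 and 63.6 with shNRP1#3. The groups lay far apart (log2 fold change -0.97, SE 0.206, adjusted p = 0.0241, edgeR), but leaving out any 1 of the 6 samples lost the call over all genes. In MDA-MB-231 the same gene had 79.2, 75.5 and 80.2 CPM against 52.3, 63.4 and 64.3, and in HS578T 131, 119 and 116 against 90.2 and 71.6. Neither pair overlapped and neither passed the test (log2 fold changes -0.37 and -0.61, adjusted p = 0.103 and 0.445, edgeR). Between the shRNAs, shNRP1#5 was higher than shNRP1#3 in SUM159PT (1.03, adjusted p = 0.00420) and in MDA-MB-231 (0.48, adjusted p = 0.0121, edgeR). The letters that pair with bases 2 to 8 of the shNRP1#3 guide (TTAGTAT) were in 9 members (10.3%, against 12.6% of all protein-coding genes), and ATP5PD was not among them.

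Set against each other, siNRP1#5 and siNRP1#3 differed in 31 of 81 members in SUM159PT (28 higher with siNRP1#5, 3 lower), where 29.7% of all genes were called, in 26 in MDA-MB-231 (22 higher, 4 lower), where 39.0% were called, and in 3 in HS578T (all higher), where 18.1% were called. The higher calls were fewer on log2(TPM + 1), with 4 higher and 6 lower in SUM159PT, where the median of all genes was -0.17, 8 and 8 in MDA-MB-231 (-0.11) and 2 and 2 in HS578T. On that scale 25.5%, 36.8% and 15.7% of all genes were called in these lines. In HS578T 7 were higher after subtraction of MDA-MB-231 reads, where 14.9% of 19370 genes were called. Between the shRNAs, 2 members were higher with shNRP1#5 in SUM159PT (8.71% of all genes called) and 6 in MDA-MB-231 (14.2% called). Without shNRP1#3 replicate 3, which held markers of the other lines, MDA-MB-231 shNRP1#5 against shNRP1#3 gave 3 members (8.62% of all genes called). In HS578T none was called (6 at an unadjusted p under 0.05, 2 with DESeq2, 0.544% of all genes called).

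The effect of siNRP1#5 differed between the 3 lines for 7 of 82 members, where 18.2% of 23416 genes did (edgeR interaction test over all samples, adjusted p under 0.05). They were NDUFV3 (adjusted p = 3.73e-05), NDUFS7, ATP5MF-PTCD1, UQCRFS1, the Rieske iron-sulfur protein of complex III, COX6B2, CYC1, the cytochrome c1 of that complex, and NDUFB7. NDUFV3 had 41.8, 59.7 and 45.0 CPM in SUM159PT siNT against 83.9 and 71.0 with siNRP1#5, and 38.7, 36.4 and 33.9 in MDA-MB-231 against 47.6, 62.0 and 48.5. In HS578T it had 36.0, 40.4 and 38.9 against 28.8, 26.1 and 18.3, so it rose in SUM159PT and MDA-MB-231 and fell in HS578T (all called, log2 fold changes 0.70, 0.56 and -0.63), without overlap in any. After subtraction of MDA-MB-231 reads the HS578T value was -0.67 and no longer passed the test (adjusted p = 0.0513, edgeR). Without HS578T, whose siNRP1#5 libraries held MDA-MB-231 markers, none of 81 members differed between SUM159PT and MDA-MB-231, where 3.67% of 22039 genes did. For the other reagents no member differed between lines: 4 had an unadjusted p under 0.05 for siNRP1#3, 1 for shNRP1#3 and 10 for shNRP1#5, where 3.42%, 0.747% and 3.81% of all genes were called.

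The non-targeting controls of the 2 delivery methods also differed from each other. In SUM159PT, 17 members were lower in shNT than in siNT and 1 was higher (median -0.14), where 14.4% of all genes were called (8.45% lower). In MDA-MB-231 18 were lower and none higher (median -0.26), where 20.6% were called (9.85% lower). In HS578T 16 were lower and 8 higher (median -0.04), where 17.9% were called. The delivery of the RNA, the selection and the harvest time differ between these controls and cannot be told apart. In SUM159PT the split was 20 lower and 5 higher with DESeq2 and 14 lower and 8 higher with length offsets. On log2(TPM + 1) it was 11 lower and 8 higher in SUM159PT, with 6 and 2 in MDA-MB-231, where the median of all genes was 0.11, and 13 and 9 in HS578T.

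The largest called changes in SUM159PT were those of UQCRB, COX7B and COX7C. UQCRB, a ubiquinone-binding subunit of complex III, had 307, 215 and 290 CPM in SUM159PT siNT and 94.4, 87.8 and 84.6 in shNT (log2 fold change -1.62, SE 0.298, adjusted p = 0.00493, edgeR). In HS578T it had 587, 678 and 257 against 206, 152 and 167 (-1.51, SE 0.347, adjusted p = 0.00804, edgeR), and in MDA-MB-231 104, 96.0 and 103 against 67.7, 63.7 and 78.6 (-0.58, adjusted p = 0.0118, edgeR). The controls did not overlap in any line. COX7C had 462, 385 and 368 CPM in SUM159PT siNT and 156, 138 and 138 in shNT (-1.51, adjusted p = 0.00651, edgeR), and COX7B 227, 141 and 221 against 77.6, 61.3 and 64.3 (-1.55, adjusted p = 0.00652, edgeR). Both groups were again apart. COX6C (-1.27), NDUFB3 (-1.32) and ATP5F1E, the epsilon subunit of the ATP synthase head (-1.21), were also lower in SUM159PT shNT, and COX6C (-1.25) in HS578T shNT. In MDA-MB-231 the lower members were led by the complex I core subunit NDUFS8 (-0.63), CYC1 (-0.59) and the complex IV subunit COX5A (-0.58). In HS578T, NDUFS4 (-1.40), NDUFA5 (-1.28), SDHA (-0.99), ATP5MK (-0.95) and COX6B2 (-2.43) were lower in shNT. The calls of UQCRB, COX7B and COX7C in SUM159PT were kept in 12 of 12 alternatives, and those of UQCRB, COX7C, NDUFS4 and SDHA in HS578T in 14 of 14. The counts moved with single libraries, to 5 to 10 members in SUM159PT without shNT replicates 1, 2 or 3 or siNT replicate 1, to 5 to 11 in MDA-MB-231 without any shNT sample or siNT replicate 2, and to 10 to 13 in HS578T without shNT replicates 2 or 3 or siNT replicates 1 or 2.

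**Figure D5:**
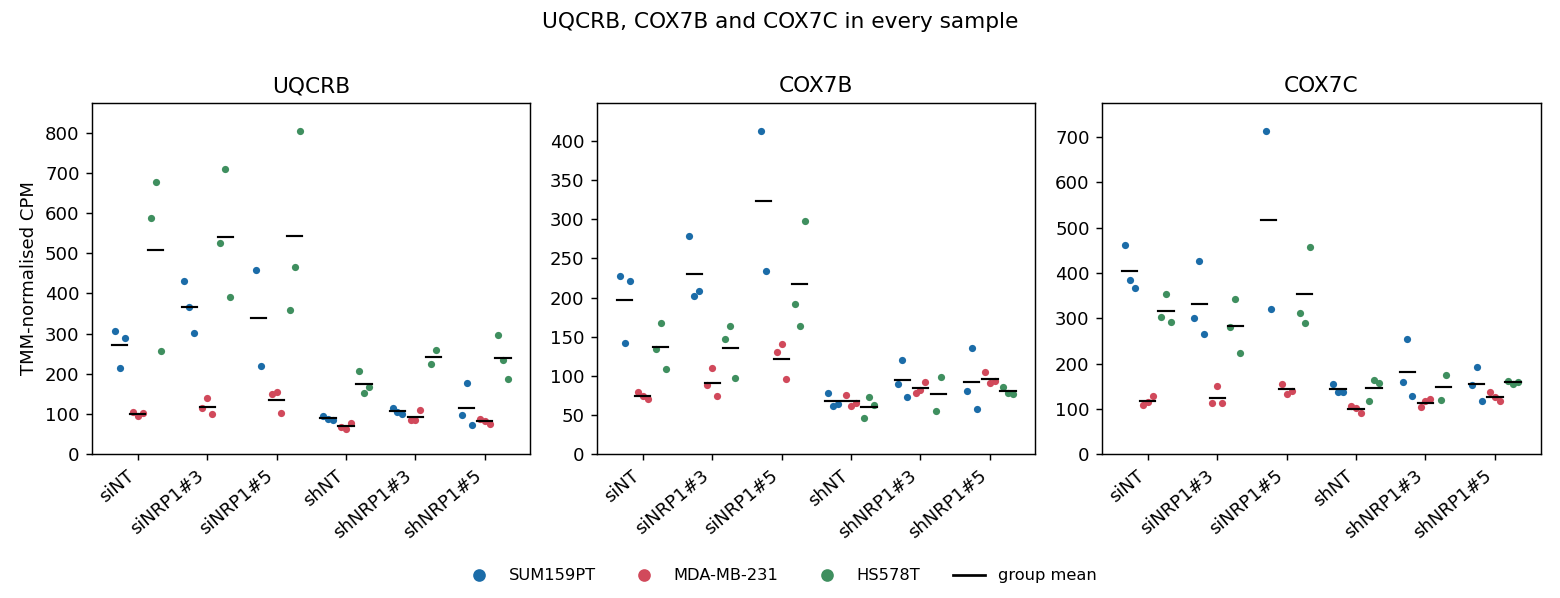
TMM-normalised CPM (y axis, linear, from 0) of UQCRB, COX7B and COX7C in every sample of the 6 conditions (x axis), coloured by cell line, with bars at group means. In SUM159PT the siNT samples of UQCRB (215 to 307 CPM) lie above the shNT samples (84.6 to 94.4), and so do those of COX7B (141 to 227 against 61.3 to 77.6).

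Between cell lines, MDA-MB-231 was lowest for most members by counts and for fewer by length-corrected levels. Against SUM159PT, 63 of 82 members were lower in the MDA-MB-231 controls and 2 higher (median -0.59), where 59.4% of all genes were called. HS578T had 64 higher and 5 lower than MDA-MB-231 (median 0.72), where 70.2% were called, and 33 higher and 16 lower than SUM159PT (median 0.14), where 63.5% were called. MDA-MB-231 had the lowest mean of the 3 lines for 70 of 82 members by CPM and 33 by TPM. The shortest length class of all genes had medians of -0.36 (MDA-MB-231 against SUM159PT), 0.61 (HS578T against MDA-MB-231) and 0.19 (HS578T against SUM159PT), in the direction of the members' medians. On log2(TPM + 1), where the medians of all genes were 0.10, -0.24 and -0.12, the splits were 12 higher and 34 lower, 25 and 25, and 17 and 40. With length offsets they were 8 higher and 44 lower, 43 and 14, and 34 and 29. In the same order, log2(TPM + 1) called 58.8%, 70.7% and 60.8% of all genes and length offsets 59.3%, 69.0% and 62.6%.

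In HS578T against MDA-MB-231, 9 of 10 complex III members were higher and none lower (median 1.46), beside 26 of 37 higher and 3 lower in complex I, 11 of 13 higher in complex IV and 16 of 18 higher and 1 lower in complex V. NDUFB9 had a lowest, median and highest value of 249, 422 and 676 CPM in the 6 HS578T controls, 42.9, 48.8 and 58.7 in MDA-MB-231 and 113, 167 and 215 in SUM159PT. No 2 lines overlapped, and the log2 fold change of HS578T against MDA-MB-231 was 3.13 (SE 0.132, adjusted p = 9.00e-23, edgeR). NDUFA13, an accessory subunit of complex I, had 281, 366 and 407 CPM in HS578T, 53.2, 66.5 and 84.3 in MDA-MB-231 and 135, 170 and 217 in SUM159PT, in the same order and also apart. CYC1 was at 678, 789 and 907 CPM in HS578T and at 235, 252 and 283 in SUM159PT (log2 fold change 1.66, SE 0.132, adjusted p = 3.02e-14, edgeR), while MDA-MB-231, at 198, 240 and 319, overlapped SUM159PT. NDUFA4 followed another order, with 165, 244 and 406 CPM in SUM159PT, 119, 187 and 278 in HS578T and 54.7, 62.8 and 73.6 in MDA-MB-231. SUM159PT and HS578T overlapped for NDUFA4, and MDA-MB-231 against SUM159PT gave -2.07 (SE 0.151, adjusted p = 1.90e-15, edgeR). COX6B2 was higher in HS578T than in SUM159PT (4.09) and MDA-MB-231 (4.97), although its HS578T values ran from 0.298 to 7.85 CPM. In complex II, SDHD was higher in MDA-MB-231 than in SUM159PT (0.70, adjusted p = 8.49e-05) and HS578T (the latter -0.66 relative to MDA-MB-231, adjusted p = 0.000139, edgeR), at 110.7, 144.8 and 160.1 TPM in MDA-MB-231.

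Other genes of the pathway were taken from 4 lists: 48 assembly factors, 12 regulators of mitochondrial transcription and biogenesis, 15 enzymes of the citric acid cycle and pyruvate entry, and the 13 respiratory chain genes of mitochondrial DNA. With siNRP1#5, 18 assembly factors rose and 3 fell in SUM159PT, while 11 rose and 5 fell in MDA-MB-231 and 2 rose and 7 fell in HS578T. The called share of the list was 43.8%, 33.3% and 18.8% in these lines, against 17.9%, 29.4% and 18.7% of all genes, so it lay above the background in SUM159PT and near it in HS578T and MDA-MB-231. The median log2 fold change was 0.40, 0.19 and -0.03. With siNRP1#3, 1 rose and 5 fell in SUM159PT, 5 rose and 7 fell in MDA-MB-231 and 2 rose and 2 fell in HS578T, or 12.5%, 25% and 8.33% of the list against 8.66%, 25.7% and 4.65% of all genes. After subtraction of MDA-MB-231 reads, 5 assembly factors rose and 5 fell with siNRP1#5 in HS578T, and 2 rose and 2 fell with siNRP1#3. ATPAF1, a chaperone for the beta subunit of ATP synthase, was called in 5 of the 12 knockdown comparisons, each time lower, among them all 3 with siNRP1#3 (-0.88 in SUM159PT, with -0.40 in MDA-MB-231 and -0.77 in HS578T). COX10, which makes the haem of complex IV, fell with siNRP1#3 in SUM159PT (-1.76), MDA-MB-231 (-2.04) and HS578T (-1.25), and with siNRP1#5 in MDA-MB-231 (-0.74). With subtraction the HS578T siNRP1#3 values were -0.76 for ATPAF1 (adjusted p = 0.0453) and -1.26 for COX10 (adjusted p = 0.00265, edgeR in each). NDUFAF2, a complex I assembly factor, rose with siNRP1#5 in SUM159PT (1.42) and MDA-MB-231 (0.49) and with shNRP1#5 in MDA-MB-231 (0.67), and fell with siNRP1#3 in MDA-MB-231 (-0.43).

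Of the regulators, 5 rose with siNRP1#5 in SUM159PT, and 2 rose in each of the other lines, where 2 (MDA-MB-231) and 1 (HS578T) fell. The called share of these 12 genes was 41.7%, 33.3% and 25%, against the same 17.9%, 29.4% and 18.7% of all genes, and the median log2 fold change 0.45, 0.06 and 0.31. With siNRP1#3 none rose and 1 fell in SUM159PT (8.33%), 1 rose and 2 fell in MDA-MB-231 (25%), and none was called in HS578T, shares near or below those of all genes. After subtraction 2 rose and none fell with siNRP1#5 in HS578T. TFAM, which packages mitochondrial DNA and starts its transcription, rose in SUM159PT (1.26) and HS578T (1.47). TFB2M, its partner in transcription, rose in SUM159PT (1.48) and MDA-MB-231 (0.54) and also with siNRP1#3 in MDA-MB-231 (0.77). PPRC1, a coactivator related to PGC-1, rose in SUM159PT (1.06) and fell in MDA-MB-231 (-0.47) and HS578T (-0.73). After subtraction TFAM in HS578T was at 1.49 (adjusted p = 0.00893, edgeR), whereas PPRC1, at -0.72, no longer passed the test (adjusted p = 0.0654, edgeR). Of the citric acid cycle list, 3 rose with siNRP1#5 in SUM159PT, with 7 in MDA-MB-231 and 1 in HS578T, and none fell, MDH2 (malate dehydrogenase) among them in SUM159PT (0.90) and MDA-MB-231 (0.63). These were 20%, 46.7% and 6.67% of the 15 genes, with a median log2 fold change of 0.34, 0.33 and 0.12, so the share was close to that of all genes in SUM159PT, above it in MDA-MB-231 and below it in HS578T. With siNRP1#3, 3, 5 and 1 of that list fell in these lines (20%, 33.3% and 6.67%, against 8.66%, 25.7% and 4.65% of all genes) and none rose. In HS578T no gene of the list was called with either siRNA after subtraction. SUCLG2, a subunit of succinyl-CoA ligase, fell with siNRP1#3 in SUM159PT (-1.44) and MDA-MB-231 (-1.59). The mitochondrially encoded genes, read from libraries enriched for poly(A) RNA, were called in 2 knockdown comparisons, with 1 lower for siNRP1#3 and 3 lower for siNRP1#5, both in MDA-MB-231 (7.69% and 23.1% of 13 genes, below the 25.7% and 29.4% of all genes). The shRNAs called 1 assembly factor higher and 2 lower (shNRP1#3) and 12 higher (shNRP1#5) in MDA-MB-231, or 6.25% and 25% of the list where 3.65% and 20.7% of all genes were called. They called 2 lower in SUM159PT shNRP1#3 (4.17%, against 1.40%) and 1 citric acid cycle gene higher in MDA-MB-231 shNRP1#5.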

How the data were processed

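RNA from 52 samples of the 3 cell lines was sequenced by the study from stranded, poly(A)-enriched libraries (TruSeq Stranded mRNA) as paired ends. The authors trimmed reads with Trim Galore 0.6.5, checked them with FastQC 0.11.9 and quantified them with STAR 2.7.2b and RSEM 1.3.3 on GRCh38 (submitters' processing notes), and deposited expected counts and TPM per gene. Expected counts were estimated by RSEM and are not whole, so they were rounded, and genes sharing sequence can share reads.

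Genes were kept by filterByExpr and scaled by TMM. The quasi-likelihood test of edgeR 4.0.16 (limma 3.58.1, R 4.3.3) was fitted per cell line with 6 group means, which share 1 estimate of the spread. Cell lines and interactions were fitted over all 52 samples with 18 group means. P-values were adjusted by Benjamini-Hochberg over all genes tested, with a threshold of 0.05. CPM are TMM-normalised. Deposited TPM were summed by complex, with no test. In 4 comparisons of a knockdown with its control, all 3 same-number pairs of samples deviated together (correlation over 0.1), as judged from the data and not from labels. The same held for SUM159PT siNRP1#5 and HS578T shNRP1#3, which have only 2 such pairs. Replicates differed beyond sampling noise (chi-square per degree of freedom of at least 10.0 in every pair). Figures were drawn with Python 3.11.15 and matplotlib 3.10.9.

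Genes were named by rule: per comparison of a knockdown, or of shNT, with its control, the largest called change of each complex and the 5 largest of any complex, the 5 members called most often, the 5 largest per pair of cell lines, the SDH genes, isoform genes, and the 3 genes called most often of the assembly, regulator and citric acid cycle lists. NDUFV3, UQCRFS1 and the genes with guide-matching letters were added after their values were seen. The members and lists were chosen with earlier results of these data known. MDA-MB-231 reads in HS578T were estimated from genes at no more than 0.5 CPM in HS578T controls and at least 20 CPM in MDA-MB-231 controls. Alternatives were DESeq2 1.42.0, no low-count filter, a replicate block, length offsets, left-out samples and read subtraction. Added after seeing the data were limma on log2(TPM + 1) with a pseudocount of 1, fits of only the 2 groups, length offsets across lines, a second choice of markers and subtraction for the genes of the lists. Single-gene results for some genes of the set and of the lists are not reported here, although the counts include them.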

Additional observations from a re-analysis of the deposited data

Results flagged for a closer look

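For 7 members the log2 fold change with siNRP1#5 differed between the 3 cell lines by the interaction test (edgeR, adjusted over all genes). The adjusted p was 3.73e-05 for NDUFV3, 0.00845 for NDUFS7, 0.00938 for ATP5MF-PTCD1, 0.0172 for UQCRFS1, 0.0264 for COX6B2, 0.0276 for CYC1 and 0.0389 for NDUFB7. These 7 of 82 stand beside 18.2% of all genes tested. Without HS578T, 0 of 81 members differed between the other lines, where 3.67% of 22039 genes did. NDUFB7 and NDUFS7 were called higher with siNRP1#5 in MDA-MB-231, where no sample overlapped siNT, and overlapped siNT in HS578T. The HS578T siNRP1#5 libraries are those that held MDA-MB-231 markers at 12.9% to 22.9% of their level there, and the part of this in the difference was not tested.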

How the results depend on the processing

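Counts of members called moved as follows. The share of all genes called also moved between fits, for SUM159PT siNRP1#5 from 0.332% (only 2 groups fitted) to 22.7% (DESeq2). Without the low-count filter they were 0 (SUM159PT siNRP1#3), 15 (SUM159PT siNRP1#5), 18 (SUM159PT siNRP1#5 against siNRP1#3), 1 (SUM159PT shNRP1#5 against shNRP1#3), 4 (MDA-MB-231 shNRP1#5), 11 (MDA-MB-231 shNT against siNT), 17 (MDA-MB-231 siNRP1#5 against siNRP1#3), 0 (HS578T siNRP1#3), 5 (HS578T siNRP1#5) and 4 (siNRP1#5 between lines). DESeq2 gave 1 for the shRNAs against each other in SUM159PT, with 10 in MDA-MB-231 and 2 in HS578T, 19 for siNRP1#3 and 1 for shNRP1#3 in MDA-MB-231, and 3 for siNRP1#3 and 3 for shNRP1#5 in HS578T. Length offsets gave 7 (siNRP1#3), 1 (shNRP1#3), 1 (shNRP1#5) and 4 (shNT against siNT) in MDA-MB-231, and in HS578T 6 between the siRNAs and 1 lower member in place of 1 higher for siNRP1#3. Log2(TPM + 1) gave 1, 6, 10 and 1 in SUM159PT (siNRP1#3, siNRP1#5, and the siRNAs and the shRNAs against each other), 20, 8 and 16 in MDA-MB-231 (siNRP1#5, shNT against siNT, siRNAs), 2, 9 and 0 in HS578T (siNRP1#3, siNRP1#5, shNRP1#5), and 57 for HS578T against SUM159PT, more of them lower than higher. Fitting only 2 groups gave 0, 0, 8 and 1 in SUM159PT (the same order), 15, 4, 32, 11 and 24 in MDA-MB-231 (siNRP1#5, shNRP1#3, shNRP1#5, siRNAs, shRNAs), and 0, 6 (2 higher, 4 lower) and 0 in HS578T. Subtraction of MDA-MB-231 reads gave 0 for HS578T shNRP1#5 by either choice of markers, and 7 or 5 between the siRNAs. The siNRP1#5 difference between lines gave 0 without HS578T, and MDA-MB-231 was lowest for 70 members by CPM against 33 by TPM.

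Leaving out 1 sample gave, in the order siNRP1#3, siNRP1#5, shNRP1#3, shNRP1#5, shNT against siNT, siRNAs and shRNAs, 0 to 2, 8 to 22, 0, 0, 5 to 17, 17 to 29 and 1 to 2 in SUM159PT. In MDA-MB-231 it gave 4 to 9, 28 to 60, 0, 2 to 7, 5 to 16, 14 to 39 and 1 to 3, and in HS578T 0 to 1, 2 to 6, 0, 0, 10 to 23, 1 to 3 and 0. Between lines all samples of 1 replicate number were left out at a time, which gave 54 to 64, 43 to 48 and 61 to 65. Where 1 siNRP1#5 sample of SUM159PT was left, it was assumed to vary like the other groups.

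Replicate numbers paired the samples in some comparisons only. All 3 same-number correlations of deviations from the group means were over 0.1 between a knockdown and its control for SUM159PT siNRP1#3 (0.172 to 0.370) and shNRP1#3 (0.123 to 0.430), MDA-MB-231 siNRP1#5 (0.302 to 0.389) and HS578T shNRP1#5 (0.243 to 0.672), where a replicate block gave 3, 1, 52 and 1 members. With only 2 same-number pairs, the correlations were also over 0.1 for SUM159PT siNRP1#5 (0.132 to 0.392) and HS578T shNRP1#3 (0.243 to 0.540). Over all pairs of groups the correlations ran down to -0.138, -0.273 and -0.277 in the 3 lines. The blocked counts for siNRP1#5 in SUM159PT and HS578T were 24 and 7. The block moved no count by over 1.5 times, and none of the 68 named changes lost its call under it. Over 809 alternative values of the named changes, 662 kept direction and call, 147 kept direction only and 0 reversed. The causes were not tested. Depth limits COX6B2 and COX7A1, which rest on few counts.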
